A study of Mus musculus with 34 samples.

Results

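The comparison described here is between the hippocampi of tofacitinib-treated mice that carried both the 5xFAD transgenes and the Dp16 duplication (5xFAD-Dp16, 4 animals) and tofacitinib-treated wild-type C57BL/6J mice (5 animals). These 9 of the 34 analysed libraries were chosen by their labelled genotype and treatment alone. All animals were 6 months of age, and each group held 2 females, with 3 males among the wild type and 2 males among the 5xFAD-Dp16 mice. Tofacitinib, an inhibitor of the Janus kinases JAK1 and JAK3, was given to both groups by oral gavage at 15 mg/kg daily for a month. The drug is therefore shared and the groups differ in genotype. The labels name the strain for the wild type only, so a difference of strain cannot be told apart from genotype. The question the comparison addresses is which part of the combined genotype effect is seen in animals given the inhibitor. Inhibition of the kinases in the hippocampus was not measured. Other animals of the series are used as reference: sham-treated wild type (5) and 5xFAD-Dp16 (3), which received 0.5% methylcellulose, and tofacitinib-treated 5xFAD (5) and Dp16 (5). Each library was made from polyadenylated RNA of the hippocampus of 1 numbered sample, taken here as 1 animal, and the 9 libraries held 14.9 M to 21.0 M gene counts each.

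The 5xFAD line carries human transgenes with mutations of familial Alzheimer disease, driven in neurons by the Thy1 promoter, and forms amyloid plaques that microglia surround. Dp16 carries a duplication of the part of mouse chromosome 16 that is orthologous to much of human chromosome 21, and that segment holds the mouse App gene and 4 receptor genes for interferons and interleukin-10 class cytokines. Interferons bind these receptors, the receptors activate Janus kinases, and the kinases activate STAT proteins, which with IRF9 bind the interferon-stimulated response element in the promoters of interferon-stimulated genes. In the brain, microglia are the main cells to express the complement C1q genes and the receptors that sense plaques. Astrocytes make Gfap and are among the cells that make C4b. The tissue is bulk, so fewer cells of a type and less RNA per cell cannot be told apart.

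Wild-type animal 3 and 5xFAD-Dp16 animal 1 stood apart from the other libraries of their groups in markers of brain region. The former had the lowest dentate gyrus markers (mean log2 CPM, the count per 1 M counts of the library, of 3.25 against 5.19 to 5.45 in the other 4) and the highest striatum markers (5.35 against at most 3.02). Its neocortex markers were also the highest of its group, at 5.68. The latter had thalamus and habenula markers of 4.66 against at most 3.07 in the other 3, and striatum markers of 4.28 against at most 2.82. Choroid plexus markers varied from 1.54 to 6.27 among the wild type and from 1.15 to 5.47 among the 5xFAD-Dp16 animals. Every member of these region lists had counts in at least 1 of the 9 libraries, and no gene of the dentate gyrus, CA1, thalamus, striatum or choroid plexus lists passed the test between the genotypes. Results are given with all 9 libraries, and counts and named genes that lost or gained a call also without wild-type animal 3.

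Under tofacitinib, 5xFAD-Dp16 hippocampi differed from wild type in 94 of 17518 genes tested (0.537%), of which 92 were higher (0.525%) and 2 were lower (0.0114%). The calls are from edgeR's quasi-likelihood test with Benjamini-Hochberg adjusted p under 0.05 over all genes, fitted on all 34 libraries with a term for sex, and all folds below are log2 fold changes of that fit with their SE. Of the 92 genes that rose, 38 lay in the triplicated segment and 54 elsewhere in the genome. The median over all genes tested was -0.0033, and 49.2% of them lay above 0. Of the 54 genes outside the segment, 39 stood in a gene list and 15 in none. The 2 that fell were Cbs, which makes cystathionine from homocysteine, and Slc13a5, a citrate transporter. Without wild-type animal 3 there were 73 higher and 2 lower genes (0.429% of genes), and 71 of the 94 were called again.

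The triplicated segment, taken from Lipi to Zbtb21 (GRCm38 chr16:75540514-97962622, 22.4 Mb), rose nearly as a block. Of its 384 annotated genes, 107 were abundant enough to test; 38 of them rose (35.5%, against 0.31% of genes outside the segment) and none fell. The median log2 fold change of the 107 was 0.57, which is a fold of 1.48, and 103 of them lay above 0. Without wild-type animal 3, 35 segment genes rose and the median was 0.57. In 57 of the 107 genes all 4 5xFAD-Dp16 values lay above all 5 wild-type values, against 1.94% of all genes tested. All 38 called genes were among the 69 with a mean of at least 10 CPM, whose median was 0.56 with quartiles of 0.49 and 0.64; the 38 genes under 10 CPM had a median of 0.59 and none passed. Each of the 4 animals showed the rise, with medians over the wild-type mean of 0.67, 0.50, 0.58 and 0.59 in animals 1 to 4. The 4 segment genes at or below 0 were Clic6, a chloride channel gene named after its value was seen, at -0.11 ± 1.49 (SE), and 3 long non-coding RNAs under 1 CPM. On chromosome 16 outside the segment, 426 genes were tested, their median was -0.0043, and 1 gene was higher, Hcls1, which encodes an actin-binding protein of blood-lineage cells.

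**Figure D1:**
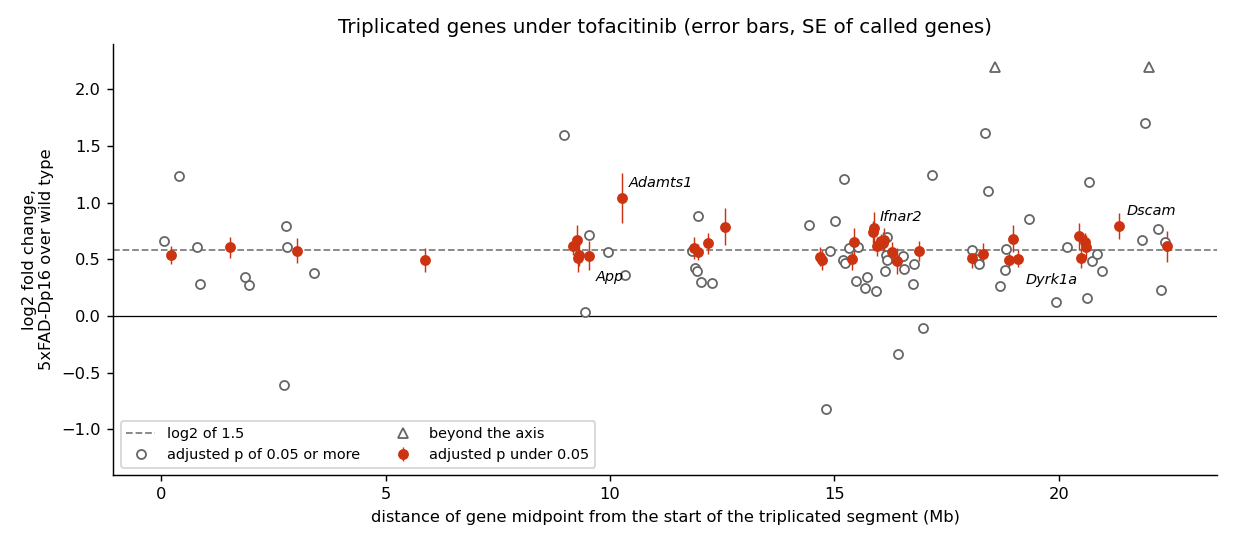
Log2 fold change of 5xFAD-Dp16 over wild type under tofacitinib (y axis) for the 107 tested genes of the triplicated segment, by distance of the gene's midpoint from the segment's start in Mb (x axis); filled points with SE bars passed the test, open points did not, and triangles lie beyond the axis. The 38 called genes lie between 0.48 and 1.04 along the segment; the dashed line marks log2 of 1.5.

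Among the receptors encoded in the segment, Ifnar1, a chain of the type I interferon receptor, was at 34.7, 39.8, 38.3, 30.3 and 42.4 CPM in wild-type animals 1 to 5 and at 58.5, 63.8, 51.0 and 55.6 CPM in 5xFAD-Dp16 animals 1 to 4. The groups did not overlap, and Ifnar1 rose by 0.61 ± 0.081 (adjusted p = 4.2e-05). Ifnar2, the other chain of that receptor, was at 16.1 to 20.8 CPM in the wild type and 28.2 to 33.0 CPM in 5xFAD-Dp16 mice, a rise of 0.74 ± 0.097 (adjusted p = 4.2e-05). Il10rb, a chain shared by the interleukin-10 and interferon-lambda receptors, rose by 0.78 ± 0.14 (adjusted p = 0.00278), from 5.89 to 9.53 CPM to between 12.2 and 15.3 CPM. Ifngr2, a chain of the interferon-gamma receptor, was at 72.4, 73.0, 44.6, 75.8 and 70.2 CPM in the wild type and at 105, 107, 102 and 106 CPM in 5xFAD-Dp16 mice. All 4 values lay above all 5, but the log2 fold change of 0.64 ± 0.16 missed the threshold (adjusted p = 0.0553). Wild-type animal 3 was the lowest; without it the value was 0.52 (adjusted p = 0.187), and Ifngr2 passed in 0 of 9 refits without 1 library. With that animal and the other 2 libraries of the series low in hippocampal markers left out together, it passed at 0.53 (adjusted p = 5.4e-05).

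The 10 segment genes with the smallest p covered several functions. Tmem50b, a membrane protein of the secretory pathway, was at 74.1 to 80.8 CPM in the wild type and 116 to 127 CPM in 5xFAD-Dp16 mice (0.66 ± 0.064, adjusted p = 3.03e-07), the smallest p in the genome. The nucleosome-binding protein gene Hmgn1 rose by 0.65 and the mitochondrial ribosome gene Mrpl39 by 0.61. The chaperonin subunit gene Cct8 rose by 0.56, the ubiquitin ligase gene Ttc3 by 0.49, the neuronal adhesion gene Dscam by 0.80 and the haem-regulated repressor gene Bach1 by 0.64. Rcan1, which encodes an inhibitor of calcineurin, was at 48.8, 52.5, 67.5, 52.1 and 52.6 CPM in the wild type and at 84.4, 87.6, 80.6 and 72.9 CPM in 5xFAD-Dp16 mice, a rise of 0.57 ± 0.084 (adjusted p = 0.000177). Dyrk1a, a kinase gene of the segment studied in Down syndrome, rose by 0.51 ± 0.076 (adjusted p = 0.000195), from 77.5 to 91.9 CPM to between 109 and 132 CPM. App was at 1830, 1410, 1860, 1310 and 1670 CPM in the wild type and at 2130, 2640, 2150 and 2490 CPM in 5xFAD-Dp16 mice, and rose by 0.53 ± 0.13 (adjusted p = 0.047). The App call was lost without wild-type animal 1, 2, 4 or 5 or 5xFAD-Dp16 animal 2, 3 or 4, with log2 fold changes from 0.47 to 0.60 over all settings. In 5xFAD mice without the duplication App was at -0.04. Further called segment genes, chosen for mention after their values were seen, were the superoxide dismutase gene Sod1 (0.53), the endocytosis genes Itsn1 (0.56) and Synj1 (0.65), the purine synthesis gene Gart (0.67), the kainate receptor gene Grik1 (0.79) and the protease gene Adamts1 (1.04). Adamts1 lost its call without wild-type animal 3 (0.93, adjusted p = 0.0662).

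Thy1 encodes a surface glycoprotein of neurons, and its promoter drives the 5xFAD transgenes. It was at 877, 866, 902, 813 and 872 CPM in the wild type and at 1730, 2850, 2090 and 2610 CPM in 5xFAD-Dp16 mice. No value overlapped, and the log2 fold change was 1.42 ± 0.20 (adjusted p = 0.000145). In the authors' RPKM (a level scaled by gene length and by library depth) Thy1 had the highest level of the 54 genes that rose outside the segment, with means of 460 and 1240. Of 14 secretase and amyloid-processing genes, 0 passed in edgeR's test, and their median was 0.010.

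Among 50 tested type I interferon-stimulated genes, 6 were higher in 5xFAD-Dp16 mice (background 0.525%) and 0 were lower, the median log2 fold change was 0.81, and 48 of 50 lay above 0. The 6 were Lgals3bp, Ifit3, Ifit3b, Irf9, Bst2 and Trim25. Mean log2 CPM of the list was 1.76, 1.38, 1.54, 1.65 and 1.26 in wild-type animals 1 to 5 and 2.64, 2.36, 2.34 and 2.30 in 5xFAD-Dp16 animals 1 to 4, without overlap. In 15 of the 50 genes all 4 animals lay above all 5 (1.94% of all genes). Without wild-type animal 3 the list's median stayed 0.81 and 5 genes were higher: Irf9 (adjusted p = 0.0545) and Bst2 (0.12) dropped out, and Rsad2, an antiviral enzyme gene named after its value was seen, came in at 1.43 (0.0131).

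Promoter sequences of genes that rose outside the segment are shown for those that hold a known interferon-response element. Of the 54 genes, 44 could be matched by symbol, chromosome and strand to a RefSeq promoter (GRCm38.p6). The core of the interferon-stimulated response element, read as GAAA, any 2 bases and GAAA on either strand within the 250 bases before the start, occurred in 7 of the 44 (15.9%), against 2.95% of all 20918 promoters. It occurred in 0 of the 32 matched promoters of called segment genes. Among the genes listed as induced by type I interferon it occurred in 15 of 39 matched promoters (38.5%), and in the interferon-gamma and MHC class I list in 13 of 30 (43.3%). The GAS-type motif TTCNNNGAA, a STAT dimer element, occurred in 1 of the 44 (2.27%, against 6.83% of all promoters), and the ETS-type motif GAGGAAG, bound by the macrophage factor PU.1, in 5 of the 44 (11.4%, against 10.2%). Stretches of 60 bases around the element are given in the direction of the gene for 5 of the 7 genes, those whose RefSeq start lay within 50 bases of the annotated start, with the motif in capitals (as its reverse complement in Ifit3 and Ifit3b).
Ifit3: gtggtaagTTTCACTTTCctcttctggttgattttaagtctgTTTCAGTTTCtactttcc
Ifit3b: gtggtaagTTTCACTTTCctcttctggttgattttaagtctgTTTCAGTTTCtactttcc
Bst2: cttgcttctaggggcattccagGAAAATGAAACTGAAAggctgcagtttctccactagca
B2m: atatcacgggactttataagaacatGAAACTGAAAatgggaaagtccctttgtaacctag
Ctss: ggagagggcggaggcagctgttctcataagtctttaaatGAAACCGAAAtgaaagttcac
They lie at chr19:34583365-34583424 (+ strand) for Ifit3, chr19:34607761-34607820 (+) for Ifit3b, chr8:71537565-71537624 (- strand) for Bst2, chr2:122147523-122147582 (+) for B2m and chr3:95526726-95526785 (+) for Ctss. The stretches of Ifit3 and Ifit3b are letter for letter the same, with 2 copies of the motif each; in Bst2 2 overlapping copies share GAAA. A match is a description of the letters and not evidence of binding.

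Ifit3, an interferon-induced gene that restrains viral RNA, was at 6.49, 8.32, 8.98, 6.36 and 5.83 CPM in the wild type and at 25.4, 18.4, 15.6 and 18.2 CPM in 5xFAD-Dp16 mice. The groups did not overlap, animal 1 was the highest, and Ifit3 rose by 1.39 ± 0.27 (adjusted p = 0.00629). Its neighbour and near copy Ifit3b rose by 1.34 ± 0.29 (adjusted p = 0.0183), from 2.28 to 8.32 CPM to between 9.77 and 12.1 CPM; the call held in 4 of the 9 refits without 1 library. Reads of the 2 genes may be split between them in counting, so their separate values are uncertain. Lgals3bp, a secreted glycoprotein induced by interferon, was at 20.9, 15.9, 14.7, 20.6 and 17.7 CPM and at 59.3, 59.1, 54.8 and 50 CPM. The lowest 5xFAD-Dp16 value was well above the highest wild-type value, and the rise was 1.60 ± 0.23 (adjusted p = 0.000166). Trim25, a ubiquitin ligase of the RIG-I pathway, rose by 0.81 ± 0.15 (adjusted p = 0.00356) and did not overlap, at 5.21 to 8.36 CPM against 11.6 to 13.4 CPM. Irf9, the DNA-binding partner of the STATs, was at 9.23, 6.66, 5.14, 5.51 and 6.06 CPM against 12.6, 11.4, 8.63 and 13.4 CPM. Its groups overlapped, since 5xFAD-Dp16 animal 3 lay below wild-type animal 1, and its log2 fold change was 0.81 ± 0.17 (adjusted p = 0.0126). Bst2, which tethers budding virus particles, was at 3.46, 3.08, 3.15, 7.11 and 2.46 CPM against 15.3, 11.6, 9.55 and 5.01 CPM, so wild-type animal 4 lay above 5xFAD-Dp16 animal 4, and its call (1.35 ± 0.32, adjusted p = 0.045) held in 2 of the 9 refits without 1 library.

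**Figure D2:**
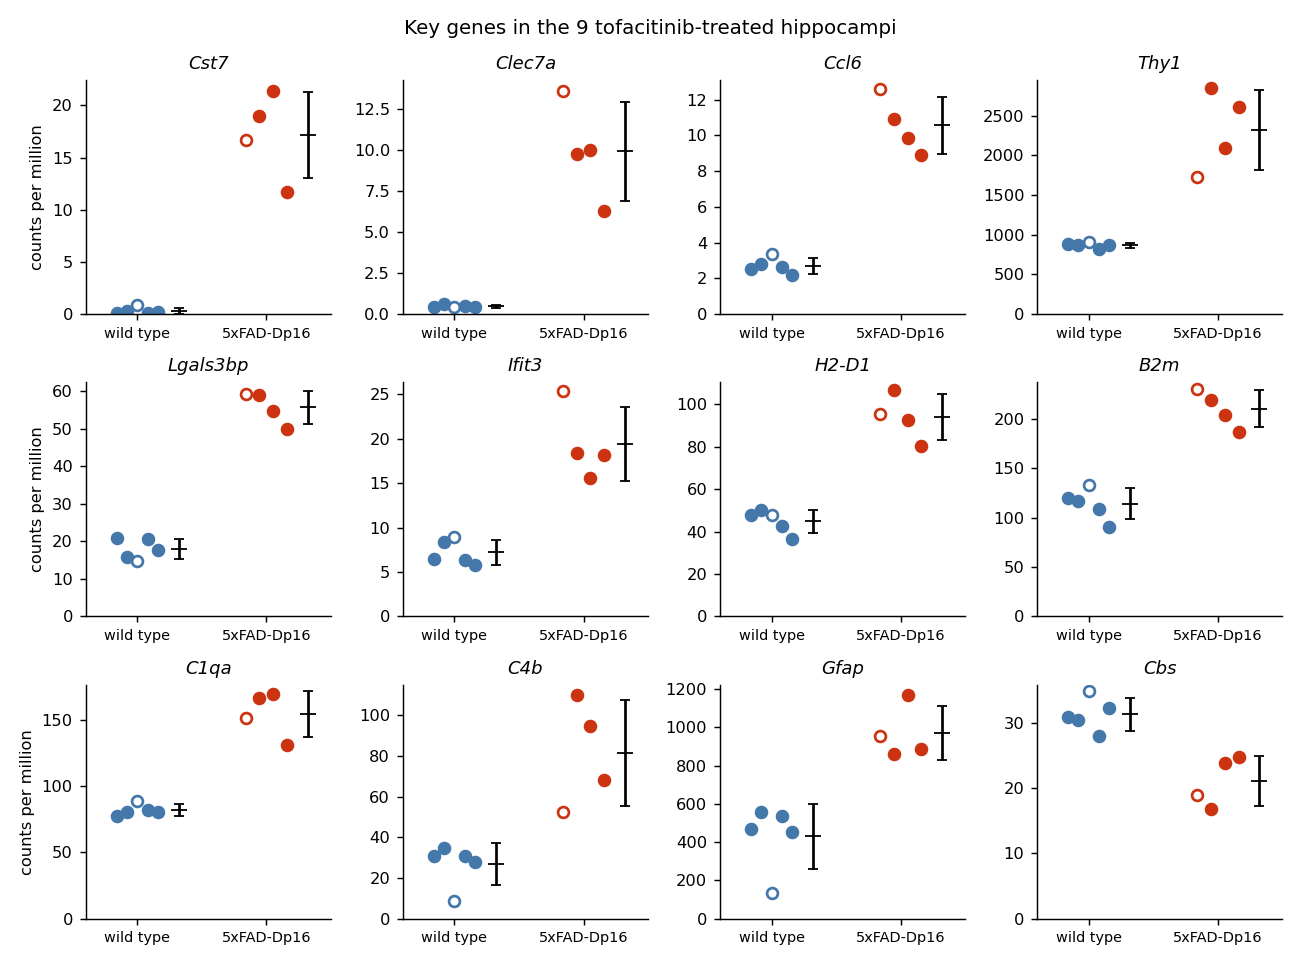
CPM (y axis) of 12 genes in the 5 wild-type and 4 5xFAD-Dp16 hippocampi under tofacitinib; each point is 1 animal, bars are the mean and SD, and open points are the libraries that stood apart (wild-type animal 3 and 5xFAD-Dp16 animal 1). The groups do not overlap in any of the 12 genes; Gfap, whose wild-type animal 3 lies at 133, did not pass the test.

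Genes of antigen presentation on MHC class I and of the interferon-gamma response showed 6 rises and 0 falls among 36 tested (against 0.525% of all genes higher), with a median of 0.63 and 33 of 36 above 0. B2m, the invariant light chain of class I molecules, was at 120, 117, 133, 109 and 90.7 CPM in the wild type and at 230, 219, 204 and 187 CPM in 5xFAD-Dp16 mice. The groups were apart, with a rise of 0.87 ± 0.17 (adjusted p = 0.00565). The class I heavy chain genes H2-D1 and H2-K1 rose by 1.04 ± 0.17 and 0.86 ± 0.15 (adjusted p = 0.000905 for both). H2-D1 was at 36.7 to 50.4 CPM against 80.6 to 107 CPM, and H2-K1 at 26.6 to 37.4 CPM against 43.1 to 66.7 CPM. The related H2-Q4 rose by 1.05 (adjusted p = 0.00919); class I genes are near copies of each other, so the split of reads among them is uncertain. The interferon-inducible GTPase genes Iigp1 and Irgm1, which act against intracellular pathogens, rose by 1.29 ± 0.21 (adjusted p = 0.00073) and 0.94 ± 0.21 (adjusted p = 0.0206). The Irgm1 call held in 5 of the 9 refits without 1 library and was lost with the replicate number as a block (adjusted p up to 0.109 over all settings). Iigp1 was at 1.17 to 2.00 CPM in the wild type and at 4.25, 4.16, 4.18 and 4.54 CPM in 5xFAD-Dp16 mice. Without wild-type animal 3 the count was 7, with the non-classical class I gene H2-T23 (named after its value was seen) added at 1.04 (adjusted p = 0.00162) against 0.60 (0.55) with it. MHC class II genes did not pass (0 of 8 in edgeR's test); 8 of 8 lay above 0 with a median of 1.03. Their levels overlapped, at 0.15 to 1.38 mean log2 CPM in the wild type and 0.65 to 2.25 in 5xFAD-Dp16 mice.

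Of 23 tested JAK-STAT receptors and transducers outside the segment, a list that does not hold Irf9, 0 passed in edgeR's test, with a median of 0.18. Jak3, a kinase that tofacitinib targets, was at 0.61 ± 0.20 (adjusted p = 0.285), with 2.79 to 5.03 CPM against 5.13 to 6.90 CPM. Of 16 feedback genes of the pathway, such as Socs and Pim family genes, 0 passed and the median was -0.02.

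Microglial genes that mark plaque-associated cells gave the most calls of any list outside the segment, with 13 of 38 tested members higher (against 0.525% of all genes), 0 lower, a median of 0.81 and 36 of 38 above 0. Cst7, an inhibitor of cathepsins, was at 0.061, 0.25, 0.82, 0.050 and 0.17 CPM in the wild type and at 16.7, 19.0, 21.4 and 11.7 CPM in 5xFAD-Dp16 mice. It was low in the wild type, highest there in animal 3, and rose by 6.06 ± 0.80 (adjusted p = 1e-04); without that animal the value was 6.98. Clec7a, a receptor for beta-glucans, was at 0.40 to 0.62 CPM in the wild type and at 13.6, 9.71, 10 and 6.25 CPM in 5xFAD-Dp16 mice, a rise of 4.33 ± 0.69 (adjusted p = 0.000686). Trem2, a receptor for lipids and apolipoproteins, was at 9.53, 8.75, 15.2, 12.8 and 12.3 CPM against 33.9, 33.1, 30.8 and 26.5 CPM. No value overlapped and the rise was 1.43 ± 0.31 (adjusted p = 0.0179), which held in 4 of the 9 refits without 1 library. Cybb, the NADPH oxidase subunit, rose by 2.52 ± 0.47 (adjusted p = 0.00345), Cd52, a surface glycoprotein of leukocytes, by 2.15 ± 0.46 (0.017, called in 5 of the 9 refits without 1 library), Capg, an actin-capping protein, by 1.48 ± 0.24 (0.000568) and the lysosomal genes Cd68 and Ctsd by 1.20 and 0.80. The other called members, named after their values were seen, were Tyrobp (1.27), Cd84 (1.15), Ctss (0.93), Ctsz (0.82) and Hexa (0.58). Tyrobp (adjusted p = 0.0935) and Ctss (0.0607) lost their calls without wild-type animal 3, leaving 11 called members and a median of 0.77. The count was 4 without wild-type animal 1, 8 without animal 2 or 5, and 8, 6 and 5 without 5xFAD-Dp16 animals 1, 2 and 3, with medians of 0.73 to 0.88 over the refits. Homeostatic microglia genes, which mark resting cells, had 0 of 19 called in edgeR's test, with a median of 0.30 and 16 above 0. Their levels did not overlap, at 4.80 to 4.94 mean log2 CPM in the wild type and 5.03 to 5.19 in 5xFAD-Dp16 mice.

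The list counts of this paragraph stand beside 0.525% of all genes tested that were called higher. Of 11 chemokine genes, Ccl6 passed, a myeloid chemoattractant. It was at 2.49, 2.77, 3.36, 2.65 and 2.17 CPM in the wild type and at 12.6, 10.9, 9.83 and 8.90 CPM in 5xFAD-Dp16 mice. It rose by 1.98 ± 0.32 (adjusted p = 0.000686), and the list's median was 1.24; Ccl3, Ccl4 and Cxcl16 were at 2.50, 2.86 and 1.24 with adjusted p of 0.175, 0.192 and 0.196. Of 16 Toll-like receptor genes and adaptors, Tlr2, a receptor for bacterial lipoproteins, rose by 1.90 ± 0.35 (adjusted p = 0.00241), and Ly86, the partner of the Toll-like protein RP105, by 1.32 ± 0.24 (adjusted p = 0.00297). Of 15 Fc and phagocytic receptor genes, 4 rose: the sialic acid receptor family gene Cd33 (1.03 ± 0.19, adjusted p = 0.00327), Hcls1, Plek and Fcer1g. Without wild-type animal 3 only Cd33 of these 4 passed, at 1.07 (adjusted p = 0.00599). Of 22 genes in the lysosomal list 1 rose, the protective protein gene Ctsa (0.40 ± 0.094, adjusted p = 0.0354), and it did not pass without wild-type animal 3 (0.0662). That list does not hold Ctsd, Cd68, Ctss, Ctsz and Hexa, which rose and are counted above with the plaque-associated genes. Border macrophage and lymphocyte markers, which mark other immune cells, had 0 of 9 and 0 of 5 tested members called; the summed CPM of the macrophage markers was 16.6 to 31.8 in the wild type and 22.9 to 44.7 in 5xFAD-Dp16 mice. Their part in the microglial results was not tested.

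Complement genes gave 4 rises among 13 tested (against 0.525% of all genes), with a median of 0.86. C1qa was at 77.5, 80.2, 89.1, 82.2 and 80.5 CPM in the wild type and at 151, 166, 169 and 131 CPM in 5xFAD-Dp16 mice, a rise of 0.91 ± 0.20 (adjusted p = 0.0278) without overlap. Its partner genes C1qb and C1qc, which encode the other chains of the recognition molecule C1q, rose by 0.82 and 0.85 (adjusted p = 0.047 and 0.0415). All 3 C1q calls lay near the threshold and were lost on leaving out any 1 of the 9 libraries but 5xFAD-Dp16 animal 4, with log2 fold changes of 0.77 to 0.99 over all settings. C4b, the complement component made by astrocytes and microglia, was at 31.1, 35.0, 8.78, 30.7 and 28.1 CPM against 52.4, 110, 94.9 and 68.3 CPM. Wild-type animal 3 lay far below its group; the rise was 1.60 ± 0.33 (adjusted p = 0.0119) with it and 1.38 (0.0242) without it, and the call was lost without 5xFAD-Dp16 animal 2 or 3. Without wild-type animal 3, 1 complement gene passed, C4b, and the median was 0.82.

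Reactive astrocyte genes showed 5 rises among 29 tested (against 0.525% of all genes) and a median of 0.43; without wild-type animal 3 there were 4 rises and a median of 0.37. Gfap, the intermediate filament of astrocytes, was at 469, 557, 133, 535 and 454 CPM in the wild type and at 956, 858, 1170 and 886 CPM in 5xFAD-Dp16 mice. All 4 animals lay above all 5, but the log2 fold change of 1.17 ± 0.36 did not pass (adjusted p = 0.247) and was 0.94 without wild-type animal 3 (0.472). With the 3 libraries of the series low in hippocampal markers left out together it passed at 0.94 (adjusted p = 0.0124). The 5 called members were C4b, Ctsd, Iigp1, Ggta1 and Timp1, of which C4b, Ctsd and Iigp1 also stand in the groups above. Ggta1, an alpha-galactosyltransferase, rose by 1.13 ± 0.23 (adjusted p = 0.00841), and Timp1, a metalloproteinase inhibitor, rested on 27 counts in 4 animals against 1 count in 5. The Timp1 call was lost without wild-type animal 3 (adjusted p = 0.1) and held in 3 of the 9 refits without 1 library. Homeostatic astrocyte genes had 0 of 18 called and a median of 0.0084.

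Of the genes that fell, Cbs was at 30.9, 30.4, 34.9, 27.9 and 32.2 CPM in the wild type and at 19.0, 16.8, 23.9 and 24.8 CPM in 5xFAD-Dp16 mice. All 4 animals lay below all 5 (0.885% of all genes did so), and Cbs fell by 0.56 on the log2 scale (SE 0.12, adjusted p = 0.0116). The call was lost without 5xFAD-Dp16 animal 1 or 2 and with the compared groups alone (adjusted p up to 0.104). It is an ortholog of a human chromosome 21 gene that lies on mouse chromosome 17 and is not triplicated in Dp16. Of 30 such orthologs tested, it was the single call, against 0.537% of all genes tested. Slc13a5 was at 11.5, 14.3, 22.3, 13.7 and 13.7 CPM against 9.19, 8.90, 9.28 and 7.42 CPM. Its fall of 0.80 (SE 0.17, adjusted p = 0.0126) was smaller without wild-type animal 3, at -0.62 (adjusted p = 0.0607). Myelin, oligodendrocyte precursor, inhibitory neuron, glutamate receptor, neurogenesis, immediate-early, clock, heat shock, glucocorticoid-responsive, mitochondrial and cholesterol synthesis lists had 0 members called in edgeR's test.

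The same genotype comparison in sham-treated animals called 168 genes (0.959%), with 143 higher (0.816%) and 25 lower (0.143%), from 3 and 5 animals. The 2 comparisons share no animals, and the difference between them was tested for each gene as an interaction. In edgeR's test 0 of 17518 genes differed, with 674 at an unadjusted p under 0.05 (3.85%); DESeq2 also called 0, with 754 at an unadjusted p under 0.05. The segment's median was 0.57 under tofacitinib and 0.61 under sham. The median over plaque-associated microglia genes was 0.81 under tofacitinib and 0.75 under sham, with 13 and 10 members higher. The median over type I interferon-stimulated genes was 0.81 under tofacitinib and 1.30 under sham, with 6 and 26 of 50 members higher. For 42 of the 50 the effect under tofacitinib was the smaller, with a median difference of -0.41, but 4 reached an unadjusted p under 0.05 and 0 passed. Sham 5xFAD-Dp16 animal 4 was another library low in hippocampal markers; without it the sham count was 15 of 51 members, the sham median 1.28 and the median difference -0.31.

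For single members of the interferon list the intervals of the difference were wide. Lgals3bp was at 1.60 under tofacitinib and 1.60 under sham (difference 0.0015 ± 0.33, 95% interval from the fit -0.67 to 0.68). Irf9 and Bst2 were at 0.81 and 0.84, and at 1.35 and 1.33. Ifit3 was at 1.39 under tofacitinib and 1.82 under sham (difference -0.43 ± 0.40, interval -1.25 to 0.39). The smallest p of the list was that of Ifit2, a relative of Ifit3 named after its value was seen, at 0.14 under tofacitinib and 0.95 under sham (difference -0.81, unadjusted p = 0.00131, adjusted p = 0.98). Isg15, the ubiquitin-like modifier, and Irf7, the amplifying transcription factor, also named after their values were seen, were at 1.01 and 0.86 under tofacitinib and at 2.36 and 1.94 under sham, with unadjusted p of 0.0352 and 0.0242 for the difference. In level, the list's mean log2 CPM was 2.30 to 2.64 in tofacitinib-treated and 2.58 to 3.02 in sham-treated 5xFAD-Dp16 mice, which overlapped. In the wild type it was 1.26 to 1.76 with tofacitinib and 1.07 to 1.58 with sham.

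**Figure D3:**
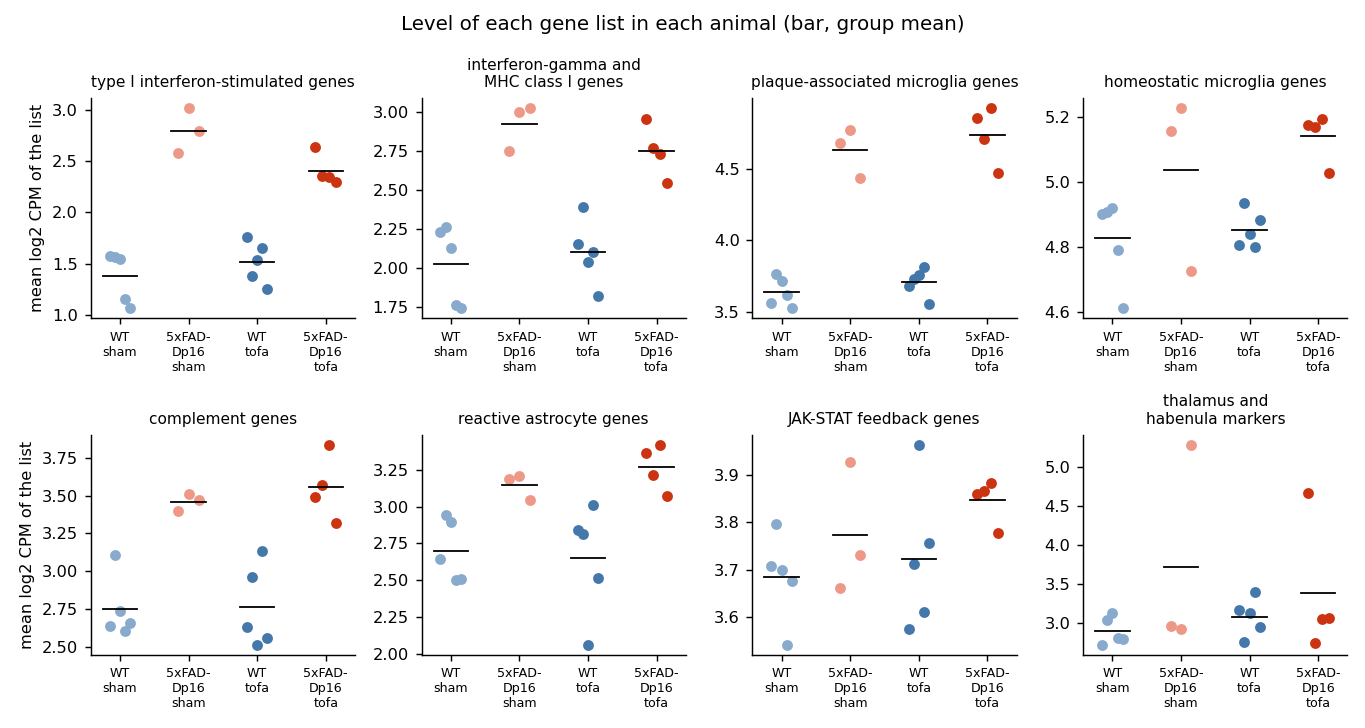
Mean log2 CPM over the tested members of 8 gene lists (y axis) in each animal of the sham and tofacitinib groups of wild type (WT) and 5xFAD-Dp16; points are animals and bars are group means. The interferon, plaque-associated and complement lists are higher in 5xFAD-Dp16 than in wild type under both treatments, and 1 animal of each 5xFAD-Dp16 group is high in thalamus and habenula markers.

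**Figure D4:**
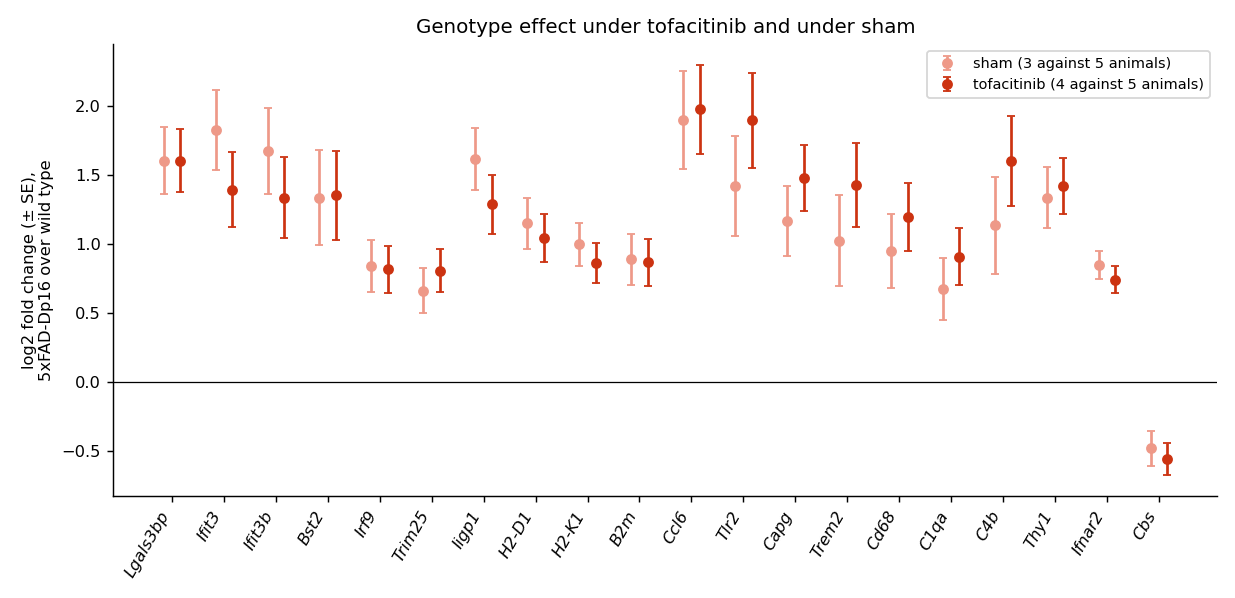
Log2 fold change of 5xFAD-Dp16 over wild type with SE (y axis) for 20 genes (x axis), under sham and under tofacitinib. The SE bars of the 2 treatments overlap for Lgals3bp, B2m, H2-D1, Thy1 and Cbs, and 0 of the 20 differences passed the test. All 20 genes were called under tofacitinib, so they were selected for their effect in that treatment. They do not stand for genes left out of the figure, such as Ifit2, Isg15 and Irf7. Over the whole type I interferon-stimulated list the median was 0.81 under tofacitinib and 1.30 under sham.

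The genotype comparisons that share the tofacitinib-treated wild type give the contribution of each genotype side by side. 5xFAD alone differed from wild type in 56 genes (0.32%; 0.308% higher) and Dp16 alone in 47 (0.268%; 0.257% higher). Because all 3 comparisons use the same 5 wild-type animals, their values are given without a test of likeness. The tofacitinib-treated 5xFAD group holds animal 2, 1 of the 3 libraries low in hippocampal markers. Its dentate gyrus markers were at 3.49 mean log2 CPM, against 5.10 to 5.91 in the other 5xFAD animals of that treatment. Its striatum markers were at 6.37 against at most 2.91, and its thalamus and habenula markers at 6.28 against at most 3.67. The 5xFAD values below include this animal. The median over plaque-associated microglia genes was 0.85 in 5xFAD, 0.05 in Dp16 and 0.81 in 5xFAD-Dp16, and that over the segment was 0.03, 0.56 and 0.57. The interferon-stimulated list had medians of 0.50, 0.22 and 0.81, with 1, 0 and 6 members higher. Iigp1 was at 0.68 in 5xFAD, 0.56 in Dp16 and 1.29 in 5xFAD-Dp16, and Ifit3 was at 0.74, 0.35 and 1.39. H2-D1 was at 0.69, 0.33 and 1.04, and Lgals3bp at 1.32, 0.64 and 1.60. Cst7 was at 6.42, -0.25 and 6.06, and Trem2 at 1.73, 0.03 and 1.43. Cbs was at 0.17, -0.59 and -0.56.

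**Figure D5:**
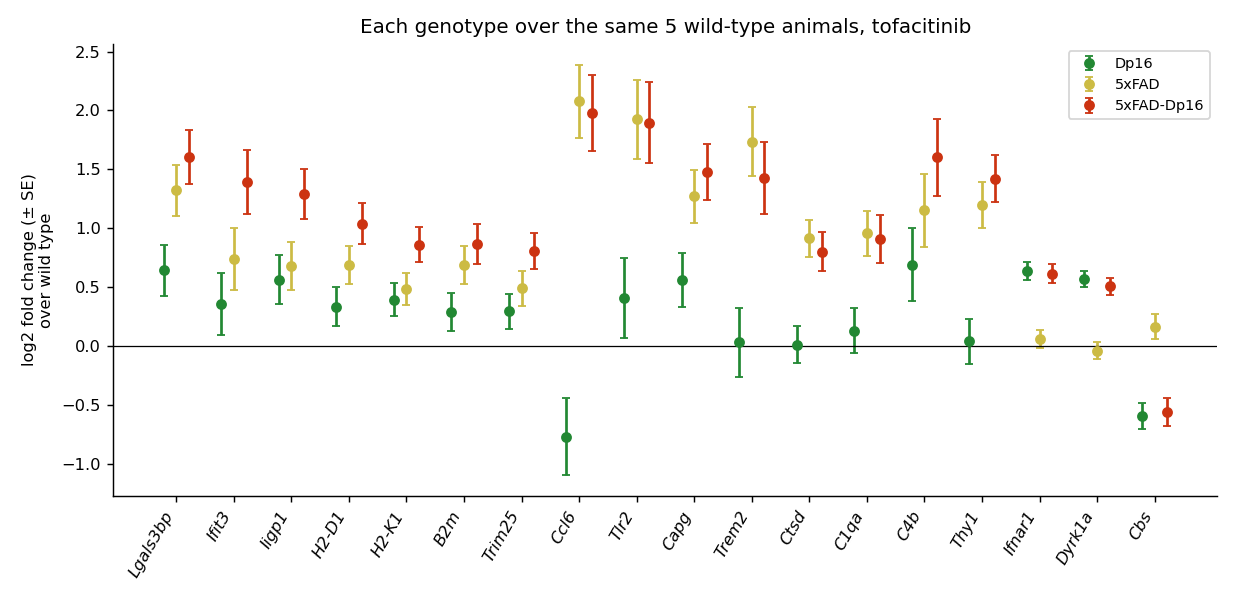
Log2 fold change over the same 5 wild-type animals with SE (y axis) for 18 genes (x axis) in Dp16, 5xFAD and 5xFAD-Dp16 mice under tofacitinib. The 5xFAD points include animal 2, which was low in hippocampal markers. For interferon-response genes at the left the 5xFAD-Dp16 point is the highest of the 3, for plaque-associated genes such as Trem2 the 5xFAD and 5xFAD-Dp16 points lie together, and for Ifnar1, Dyrk1a and Cbs the Dp16 and 5xFAD-Dp16 points do.

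Direct tests between the tofacitinib-treated genotypes gave fewer calls. In the values against 5xFAD given here, 5xFAD animal 2, low in hippocampal markers, is included. Against 5xFAD, 5xFAD-Dp16 mice differed in 38 genes (0.217%), 36 higher (0.206%) and 2 lower (0.0114%); 33 of the 36 lay in the segment, with a segment median of 0.54. Cbs was lower by this test too, at -0.73 ± 0.12 (adjusted p = 0.000806). Of the interferon-stimulated, plaque-associated and complement lists, 0 members passed against 5xFAD in edgeR's test, with medians of 0.30, -0.10 and 0.25. Ifit3 and Iigp1 were at 0.66 ± 0.27 and 0.61 ± 0.21 against 5xFAD (adjusted p = 0.943 and 0.68). Against Dp16, 5 genes were higher (0.0285%) and 0 lower: Ccl6 (2.75 ± 0.33), Cst7 (6.32 ± 0.81), Clec7a (3.88 ± 0.65), Thy1 (1.38 ± 0.20) and Hcar2. Hcar2, a nicotinic acid and ketone body receptor of myeloid cells named after its value was seen, rested on 54 counts in 4 animals. The segment's median against Dp16 was -0.00083.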

How the data were processed

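Polyadenylated RNA of 34 mouse hippocampi was sequenced; the 9 libraries compared are described above. The authors deposited raw read counts per gene and RPKM, per the file headers; the deposited tables' names give GENCODE vM24. Tools listed in the submitters' processing notes, with no order, are HTSeq 0.6.1, HISAT2 2.1.0, SAMtools 1.5, FastQC 0.11.5 and bcl2fastq; GRCm38 is the build listed. The kit keeps strand, per the labels' protocols; the counting's strand setting and its treatment of reads with several matches are not given in the sources used here. Values of overlapping genes and near copies are therefore uncertain. The deposited RPKM follow from the deposited counts, with an implied length per gene that differed by at most 9.7e-16 (relative) between libraries, and were used for levels only. Coordinates came from GENCODE M21 of the same build (55144 of 55385 IDs, 99.56%). Columns were mapped to samples by title, and numbered samples were taken as separate animals, so p-values measure the spread between these samples.

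Counts were analysed in R 4.3.3 with edgeR 4.0.16 (TMM, filterByExpr, quasi-likelihood F test, 8 group means and sex, 34 libraries, 25 residual degrees of freedom), which left 17518 genes. log2 CPM used a prior count of 2. Alternatives were DESeq2 1.42.0, its size factors, no filter, leaving out sex, a block for replicate number, the compared groups alone, 2 surrogate variables (sva 3.50.0), each library left out, and the 3 libraries low in hippocampal markers left out. On simulated counts for this comparison (17343 genes) the test recovered 46% of genes changed 1.5-fold, 82% of 2-fold, 96% of 4-fold and 68% of 0.5-fold changes, and called 9 unchanged genes. The changed genes, 50 for each fold, were drawn from those with a mean above 1 CPM over the 9 libraries, so lower genes were not covered. Members, the 3 libraries and the 42 gene lists were chosen with earlier results of these data known, so list counts are descriptions without a test of the list; segment genes, Thy1 and App were left out of the other lists. Named genes were 9 check genes, the 15 largest rises and falls outside the segment with a mean of at least 1 CPM, the 10 smallest p in the segment, up to 6 members of each list with a call and 2 of each other list, and the 5 smallest p of the difference; others are said to be named after their values were seen. Replicate libraries differed by more than sampling noise. A gene withheld for evaluation is not reported here.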

Additional observations from a re-analysis of the deposited data

Results flagged for a closer look

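Each value here lies far from the rest of its own group, by Dixon's ratio of the gap to the range; 196 groups of values were examined and 17 were found, while chance gives about 1 in 20. Wild-type animal 3 accounts for 9 of them: C4b at 8.78 CPM (next value 28.1), Gfap at 133 CPM (454), Ifngr2 at 44.6 CPM (70.2), Iigp1 at 1.17 CPM (1.72), Rcan1 at 67.5 CPM (52.6), and the mean log2 CPM of dentate gyrus markers at 3.25 (5.19), of CA1 markers at 4.31 (5.68), of neocortex markers at 5.68 (4.91) and of striatum markers at 5.35 (3.02). Among other wild-type animals, Bach1 was at 9.91 CPM in animal 4 (12.6), H2-K1 at 37.4 CPM in animal 2 (28.9), and Timp1 at 0.0501 CPM in animal 4, the single wild-type animal with a count. Among 5xFAD-Dp16 animals, Cd33 was at 8.97 CPM in animal 1 (13.4), homeostatic microglia genes at 5.03 in animal 4 (5.17) and neocortex markers at 5.06 in animal 2 (4.67). In animal 1, thalamus and habenula markers were at 4.66 (3.07) and striatum markers at 4.28 (2.82).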

How the results depend on the processing

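Counts of called genes depended on the test more than directions did; among all values recomputed, 0 reversed. The genes higher in 5xFAD-Dp16 numbered 92, against 211 without the filter on low counts, 146 by DESeq2 and 51 with the compared groups alone; the lower genes numbered 2, against 69, 10 and 1, 7 without the 3 libraries low in hippocampal markers and 8 with 2 surrogate variables. Leaving out each library in turn gave 61 to 91 higher and 2 to 5 lower genes. The 38 segment genes became 13 with the compared groups alone and 33 to 41 without each library, and the 54 higher genes outside it became 157 without the filter, 97 by DESeq2 and 28 to 51 without each library. The difference between treatments, 0 genes, became 232 without the filter and stayed 0 without each library. The sham count of 168 was 1270 without the filter, 348 by DESeq2, 0 with the compared groups alone, 85 without the 3 libraries, 97 with surrogate variables and 65 to 474 without each library. The 38 genes against 5xFAD were 273 without the filter, 0 with the compared groups alone and 26 to 39 without each library; the 5 against Dp16 were 117, 35, 25 by DESeq2, 10 without the 3 libraries and 4 to 5. Interferon-stimulated genes (6) were 16 without the filter, 2 with the compared groups alone, 12 by DESeq2 and 4 to 6 without each library; interferon-gamma and MHC class I genes (6) were 4 to 7; plaque-associated genes (13) were 20 without the filter and 4 to 14; complement genes (4) were 0 to 4.

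Replicate numbers are shared between the groups and were not taken to pair the animals. Deviations of same-numbered wild-type and 5xFAD-Dp16 libraries correlated at -0.13, 0.07, -0.09 and -0.21. Differently numbered libraries ranged from -0.294 to 0.292. So few values cannot decide whether animals of the same number share a batch. With the replicate number as a block, 80 of the 94 calls were kept and 14 lost, and the sham count became 109. With 4 and 5 animals, 1.5-fold changes of low genes were often below what the test could call, so a gene not called is not shown to be unchanged. Genes under 1 CPM, such as Timp1 and Hcar2, rest on a few counts.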

Other observations

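Of the 54 genes that rose outside the segment, 15 stood in no list, and some are described here after their values were seen. Lcat, the enzyme that esterifies cholesterol in lipoproteins, was at 34, 32.6, 28.8, 30.9 and 30.6 CPM in the wild type and at 48.1, 46.9, 46.7 and 50.8 CPM in 5xFAD-Dp16 mice, a narrow spread in both groups (0.62 ± 0.11, adjusted p = 0.00214 in edgeR). Prpf40b, a splicing factor, rose by 0.38 ± 0.077 (adjusted p = 0.00861 in edgeR), from 32.3 to 35.5 CPM to between 41.4 and 47.0 CPM. H1f2, a linker histone, rose by 0.78 ± 0.15 (adjusted p = 0.00327 in edgeR). Slc15a3, a lysosomal peptide transporter, rose by 1.75 ± 0.33 (adjusted p = 0.00362 in edgeR), from 1.21 to 3.37 CPM to between 5.04 and 7.47 CPM.

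The gene a, which encodes the agouti signalling protein of coat colour on chromosome 2, had 0 counts in all 5 tofacitinib-treated wild-type libraries and 35, 18, 40 and 34 counts in the 4 5xFAD-Dp16 libraries. Against a floor of 3 counts over the wild-type group, its mean of 1.72 CPM was at least 48.7-fold higher. In the other groups it had 28 to 61 counts in tofacitinib-treated and 21 to 38 in sham-treated Dp16 mice, and 19 to 32 in sham-treated 5xFAD-Dp16 mice. It had 0 counts in sham-treated 5xFAD mice, 9 counts in 1 of 5 tofacitinib-treated 5xFAD mice and 4 counts in 1 of 5 sham-treated wild-type mice. Every Dp16-carrying library had counts; the strain is named in the labels for the wild type, as C57BL/6J, and a part of strain in these counts was not tested. All 16 cholesterol synthesis genes tested lay above 0 (49.2% of all genes did) with a median of 0.19, although 0 passed in edgeR's test. The list's mean log2 CPM overlapped, at 5.47 to 5.8 in the wild type and 5.5, 6.01, 5.89 and 5.99 in 5xFAD-Dp16 animals 1 to 4. Fdft1, squalene synthase, was at 0.35 (adjusted p = 0.201 in edgeR) with all libraries. It passed at 0.44 (0.00407 in edgeR) without the 3 libraries low in hippocampal markers.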
